A study of Mus musculus with 2 samples.

Results

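Excitatory nuclei with a transcript of cholecystokinin (Cck) were selected from a single-nucleus survey of the spinal dynorphin lineage. A nucleus was taken as excitatory when it held at least 1 unique molecular identifier (UMI, a counted RNA molecule) of Slc17a6, the vesicular glutamate transporter of these neurons, and no UMI of Gad1, Gad2, Slc32a1 or Slc6a5, the GABA and glycine genes. Of 1382 excitatory nuclei, 90 held at least 1 Cck UMI (41 of 673 injured, 49 of 709 naive), out of 7610 nuclei in all. The other 1292 excitatory nuclei (632 injured, 660 naive) held none. A narrower form of the gate, which also asked for no UMI of Pdyn, Tac1 or Adcyap1, held only 34 nuclei (14 injured, 20 naive), under the minimum of 50 set for it, so nuclei with those 3 peptide transcripts were allowed.

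The injured library pooled the nuclei of 8 adult mice that had an incision of the left plantar hindpaw at postnatal day 3. The naive library pooled 8 littermates that had isoflurane alone on day 3. All mice, of either sex, carried Pdyn-IRES-Cre(+/-) and R26-LSL-Sun1.eGFP(+/-), so that any cell that had expressed prodynorphin (Pdyn) at some time kept a fluorescent nuclear envelope. GFP-positive nuclei of the dorsal spinal cord at lumbar level (L3-L5) were sorted and their nuclear RNA was sequenced with 10x Genomics 3' chemistry; excitatory neurons outside the Pdyn lineage are therefore not represented. Each group was 1 pooled library, so injured and naive mice were compared without a test, and the 95% intervals given throughout speak of counting error alone.

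Cholecystokinin is made as a precursor that prohormone convertases cut in dense-core vesicles and Pam amidates, and it acts on the receptors Cckar and Cckbr. In the mouse dorsal horn, Cck marks excitatory interneurons that lie mainly in the deeper layers, where touch-sensitive afferents end. The transcription factors Maf and Rora are known from the same layers. Superficial excitatory neurons express other peptides, among them Tac1, Tac2, Grp, Nts and Penk.

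Cck was a low-count transcript in the nuclei that held it. Among the 41 injured nuclei, 30 had 1 Cck UMI, 8 had 2, and 1 nucleus each had 3, 4 and 5. Among the 49 naive nuclei, 35 had 1 UMI, 8 had 2, 4 had 3, and 1 nucleus each had 5 and 6. The sums were 58 injured and 74 naive Cck UMIs, all of them inside the gate by its construction. Most members thus stood at the threshold itself. A further 6 injured and 4 naive nuclei had both Slc17a6 and Cck and missed the gate by exactly 1 UMI of the GABA and glycine genes. Slc17a6 ran from 1 to 10 UMIs (median 3) in injured members and from 1 to 8 (median 2) in naive members.

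The gene (ENSMUSG00000032532) lies on chromosome 9, from 121489824 to 121495694 on the minus strand of GRCm38, the assembly of the authors' mm10 build. Its promoter window is shown because Cck defines the nuclei described here. The 250 bases before the start annotated by RefSeq are printed (GRCm38.p6, chr9:121495695-121495944, read on the minus strand). Capitals mark the E-box CACGTG and TGCGTCA, a sequence close to the cyclic AMP response element, each searched on both strands in a window that also holds the 50 bases after the start.
Cck promoter: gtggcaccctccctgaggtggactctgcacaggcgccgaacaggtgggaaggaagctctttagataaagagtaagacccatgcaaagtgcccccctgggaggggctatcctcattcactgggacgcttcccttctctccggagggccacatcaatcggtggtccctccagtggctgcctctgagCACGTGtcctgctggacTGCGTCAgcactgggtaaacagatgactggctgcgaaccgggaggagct
CACGTG occurred in 7.15% of 32851 mouse promoter windows of 300 bases, and TGCGTCA in 2.12%. The Cck window held 1 match of each, and they did not overlap. These matches describe the sequence and are not shown to be used in these cells.

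The members were as deep as the nuclei they were compared with. Injured members held 445244 UMIs in total, with a median of 9882 per nucleus (5029 to 21026), against a median of 10108 in other injured excitatory nuclei. Naive members held 472887 UMIs with a median of 8219 (3408 to 23279), against 8285 in other naive excitatory nuclei. A gene with no count in the members could still stand at up to 6.74 CPM (UMIs of the summed nuclei scaled to a total of 1000000) in the injured and 6.34 CPM in the naive library. In injured members 27 nuclei had only Xist, 10 only Y-linked, 2 both and 2 neither kind of sex-linked UMI; in naive members the numbers were 36, 10, 2 and 1. The libraries shared 3 barcode sequences, none of them of a member.

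Members made up 6.09% of excitatory nuclei in the injured library (4.41 to 8.17) and 6.91% in the naive library (5.16 to 9.03). The intervals overlap. Free RNA sets a floor under such shares. In inhibitory nuclei, with at least 3 UMIs of the GABA and glycine genes and no Slc17a6, a Cck UMI was found in 29 of 1498 injured (1.94%) and 24 of 1613 naive nuclei (1.49%), at median depths of 8578 and 7187 UMIs. Oligodendrocyte nuclei, which should lack Cck, had it in 0 of 52 injured nuclei (0 to 6.85%). They had it in 1 of 42 naive nuclei (2.38%, 0.0603 to 12.6), a level of 8.59 CPM (0.218 to 47.9). The median depths of these injured and naive nuclei were only 2759.5 and 2197.5 UMIs. As a level, Cck stood at 7.93 CPM (6.02 to 10.3) over all injured and 11.7 CPM (9.16 to 14.6) over all naive excitatory nuclei, against 2.45 and 2.21 CPM in inhibitory nuclei of the injured and the naive library. Excitatory nuclei thus carried Cck above the inhibitory level in both libraries. The injured library was the deeper one. With every nucleus thinned to 3000 UMIs after the gate, a Cck UMI was left in 7 of 670 injured (1.04%) and 20 of 709 naive excitatory nuclei (2.82%), and in 0.668% of injured and 0.621% of naive inhibitory nuclei. At that depth the injured excitatory share (0.421 to 2.14%) and the injured inhibitory share (0.321 to 1.23%) were not distinguishable.

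The Cck level was highest in a single small group of excitatory nuclei. All 1382 excitatory nuclei were clustered without Cck, the other genes of the gate, neuropeptides, immediate early and sex-linked genes, which gave 19 clusters. Cluster 8, whose leading genes included Hmga2, Nxph1, Pappa, Megf11, Fign and Meis2, held 37 injured and 38 naive nuclei, 5.50% and 5.36% of each library's excitatory nuclei. In it, 20 of 37 injured nuclei (54.1%, 36.9 to 70.5) and 19 of 38 naive nuclei (50%, 33.4 to 66.6) were members. Cck stood at 95.6 CPM in injured (65.0 to 136) and 111 CPM in naive nuclei of cluster 8 (76.4 to 156). Outside it the levels were 3.86 CPM in the injured (2.55 to 5.62) and 6.78 CPM in the naive library (4.86 to 9.20).

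Cluster 8 held 48.8% of injured and 38.8% of naive members, and the rest were spread thinly. Outside cluster 8, members were 21 of 636 injured (3.30%) and 30 of 671 naive excitatory nuclei (4.47%). The injured level outside the cluster, 3.86 CPM, has an interval that overlaps that of inhibitory nuclei, 2.45 CPM (1.71 to 3.41), whereas the naive level, 6.78 CPM, does not overlap its inhibitory counterpart, 2.21 CPM (1.47 to 3.20). Cluster 12, led by Pde11a, Sst and Ebf2, had the next highest Cck level, 31.8 CPM in the injured (13.7 to 62.6) and 54.7 CPM in the naive library (26.2 to 101), with 4 of 25 injured and 5 of 24 naive nuclei as members. Cluster 2, led by Rnf207, Foxp2 and Ntng1, had 6 of 81 injured and 10 of 86 naive nuclei as members. Of members with 1 Cck UMI, 13 of 30 injured and 10 of 35 naive nuclei lay in cluster 8; of those with 2 or more, 7 of 11 and 9 of 14 did.

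**Figure D1:**
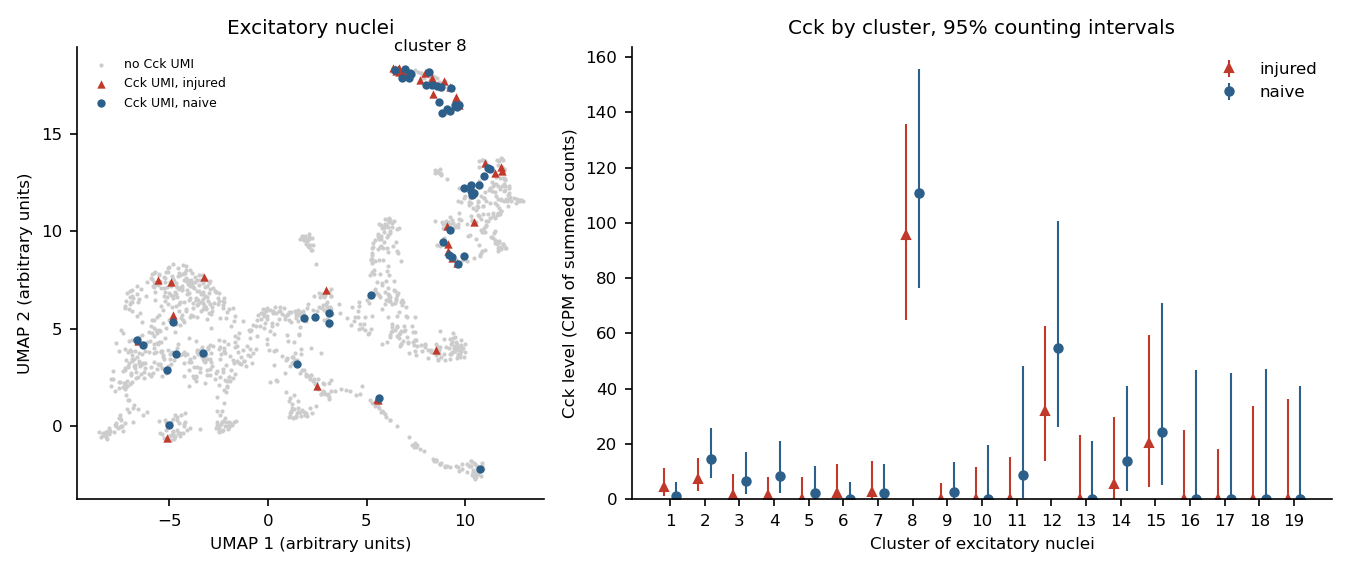
Left, a UMAP of the 1382 excitatory nuclei (axes in arbitrary units), with nuclei that hold a Cck UMI drawn as red triangles (injured) and blue circles (naive). Right, the Cck level per cluster in CPM of summed counts with 95% Poisson intervals; cluster 8 stands at 95.6 CPM (injured) and 111 CPM (naive), with cluster 12 next.

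Inside cluster 8, nuclei without a Cck UMI carried several of its leading genes about as often as those with one. Meis2 and Hmga2 were not kept out of the clustering, so likeness in them within the cluster can follow from how it was made. Nxph1, which the list of peptide precursors holds, was kept out. Nxph1 encodes a neurexophilin, a secreted ligand of alpha-neurexins, and had a UMI in 20 of 20 injured and 18 of 19 naive members of the cluster, against 16 of 17 injured and 19 of 19 naive Cck-negative nuclei. Meis2, a homeodomain transcription factor, had a UMI in every nucleus of the cluster, with and without Cck, in both libraries. Its level was 1164 CPM in injured and 778 CPM in naive members, against 1097 CPM in injured and 937 CPM in naive Cck-negative nuclei. Hmga2, an architectural chromatin protein, stood at 227 CPM in injured and 284 CPM in naive members of the cluster, against 263 and 187 CPM in the Cck-negative nuclei of the injured and the naive library. At 1 to 6 UMIs per positive nucleus, a nucleus of this cluster without a count cannot be told apart from one whose Cck was missed.

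Tac1, the precursor of substance P, was often found beside Cck. It was detected in 19 of 41 injured (46.3%) and 24 of 49 naive members (49.0%), against 18.7% of other injured and 21.97% of other naive excitatory nuclei. Within cluster 8 its level was 343 CPM in injured and 338 CPM in naive members, close to the 302 CPM of injured and 355 CPM of naive Cck-negative nuclei of the same cluster. Members outside the cluster had 21.9 CPM (injured) and 49.2 CPM (naive), against 36.9 and 76.2 CPM in the remaining injured and naive nuclei outside it. Of the Tac1 UMIs of members, 59 of 65 in the injured and 50 of 66 in the naive library lay in cluster 8. Pdyn itself, which marks the lineage, was present in 3 of 41 injured and 7 of 49 naive members, against 22.9% and 25.3% of other injured and naive excitatory nuclei. Adcyap1, the PACAP precursor, was present in 7 injured and 8 naive members. None of the 3 was detected in 14 injured and 20 naive members. These genes belong to the first form of the gate and are described without a test.

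**Figure D2:**
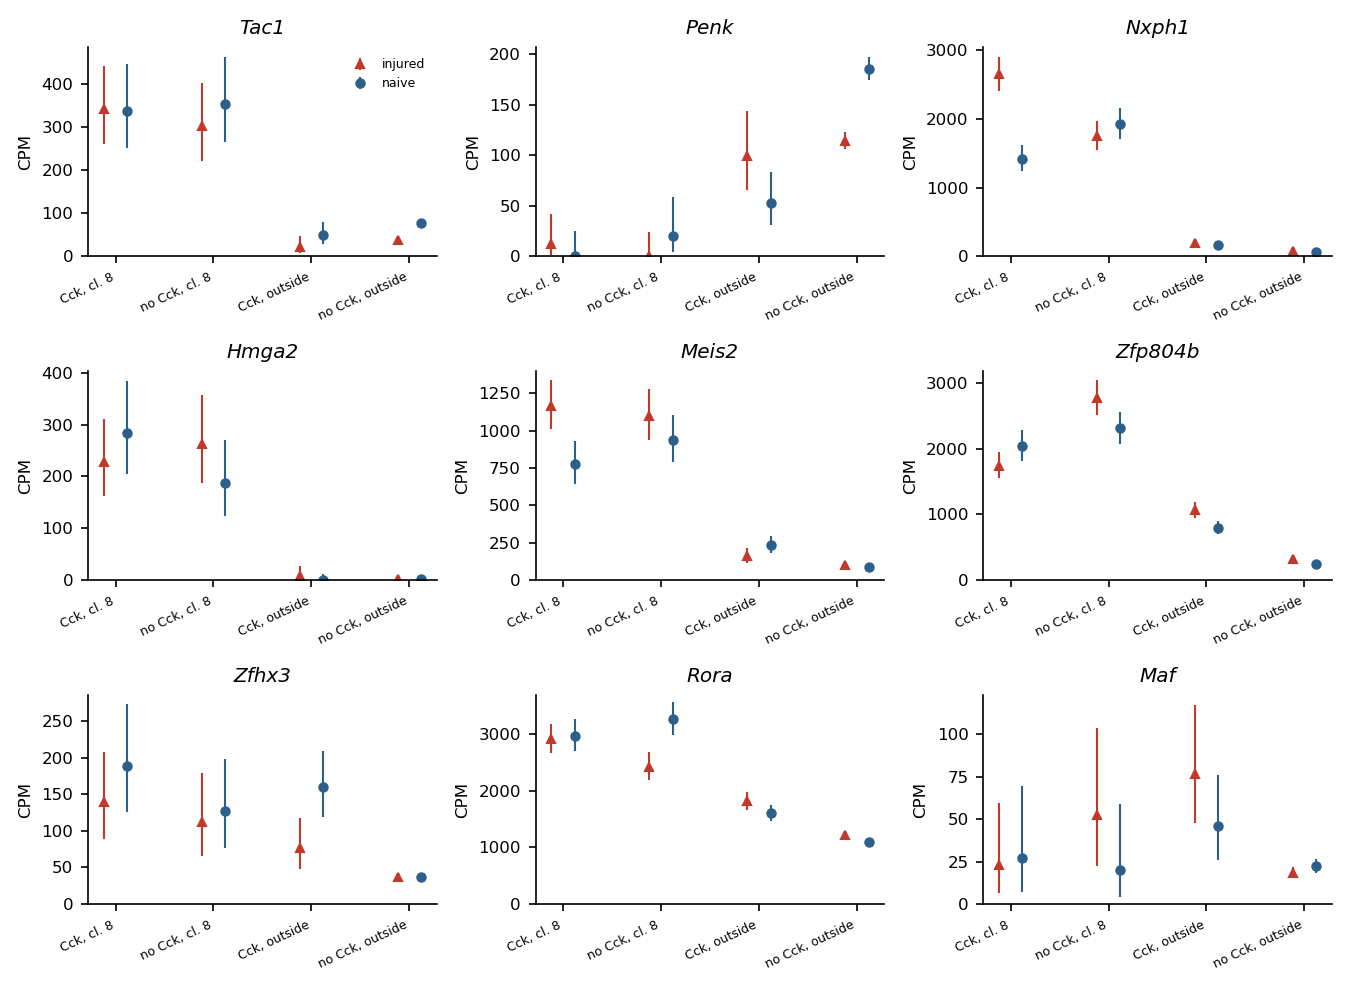
Levels of 9 genes (CPM of summed counts, 95% Poisson intervals) in nuclei with and without Cck, inside and outside cluster 8 (cl. 8), injured as red triangles and naive as blue circles. Tac1, Nxph1, Hmga2 and Meis2 follow the cluster whether or not Cck was counted, but Hmga2 and Meis2 were not kept out of the clustering. Penk is at 0 to 3 UMIs in each of the 4 groups of cluster 8 nuclei, and Maf has no such split.

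The peptide and CCK receptor genes that were named whatever their values were mostly at or near the limit of detection in members. Penk, the enkephalin precursor, was lower in members, at 65.1 CPM in injured members against 112 CPM in other injured excitatory nuclei, and at 35.9 CPM in naive members against 182 CPM in other naive nuclei (log2 fold change -1.55 ± 0.20 SE, edgeR adjusted p = 4.91e-12). DESeq2 gave a like fold change (-1.57) but no call (adjusted p = 0.407). In cluster 8, Penk had 2 UMIs in injured and 0 in naive members; outside the cluster it was also lower in members (log2 fold change -1.04, adjusted p = 0.000526). Cckbr, a receptor for the peptide, had 6 UMIs in injured and 5 in naive members, 13.5 and 10.6 CPM, against 5.10 CPM in other injured and 5.45 CPM in other naive nuclei, and did not pass the test (adjusted p = 0.382). Cckar had no UMI in any member and 2 in all other excitatory nuclei. Tac2 had 9.0 CPM in injured and 16.9 CPM in naive members, against 25.8 CPM in other injured and 28.4 CPM in other naive nuclei (log2 fold change -1.08, adjusted p = 0.121), with 58.3% of the members' UMIs in 1 nucleus. With each library split by sex-linked UMIs the Tac2 value was -2.14 and passed (adjusted p = 0.00659). Grp had no UMI in members, against 76 UMIs in the other nuclei, which is at least 1.83-fold lower by the limit a count of 0 allows over both libraries, and its adjusted p was 0.0581. Nts had 2 UMIs and Trh 2 UMIs in all members together. Sst was at 6.74 CPM in injured and 35.9 CPM in naive members, with 55% of its UMIs in 1 nucleus (adjusted p = 0.277).

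Maf and Rora, both named from the deep dorsal horn, were higher in members, Maf without passing in every fit. Maf stood at 56.1 CPM in injured members against 19.2 CPM in other injured nuclei, and at 40.2 CPM in naive members against 22.1 CPM in other naive nuclei (log2 fold change 1.19 ± 0.28 SE, edgeR adjusted p = 0.00118). Outside cluster 8 its log2 fold change was 1.55 (adjusted p = 0.000594), but with each library split by sex-linked UMIs it was 1.05 and the call was lost (adjusted p = 0.0767). Rora, an orphan nuclear receptor, was detected in every member, at 2237 CPM (injured) and 2036 CPM (naive), against 1243 and 1153 CPM in other injured and naive nuclei (log2 fold change 0.81 ± 0.08 SE, adjusted p = 1.96e-19). Its relative Rorb (adjusted p = 0.858) and Cpne4 (adjusted p = 0.997) did not pass the test. Cpne4 went opposite ways in the libraries, with 78.6 CPM in injured members against 154 CPM in other injured nuclei and 195 CPM in naive members against 119 CPM in other naive nuclei.

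Across all genes outside the gate, counts summed per library and class were tested with edgeR's quasi-likelihood test, with the library as a block. Of 12862 genes tested, 516 (4.01%) passed an adjusted p of 0.05, 231 higher (1.80%) and 285 lower (2.22%) in members; the median log2 fold change of all genes tested was 0.00. Both libraries had the same direction for 514 of the 516, which a test that rests on these same 2 libraries makes likely. The exceptions were Bnc2 and Gramd3, both without a UMI in injured members. The 4 sums leave 1 residual degree of freedom and the fit gave all genes a single estimate of spread, so the p-values of genes that vary more than most are too small; with each library split by sex-linked UMIs, 360 of the 467 calls that could be tested were called. With cluster 8 left out of both classes, a choice made after the data had been seen, 201 genes were called, 169 of them among the 516.

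The genes that rose most were largely those of cluster 8. Hmga2 stood at 92.1 CPM in injured members against 8.30 CPM in other injured nuclei, and at 88.8 CPM in naive members against 6.81 CPM in other naive nuclei (log2 fold change 3.55 ± 0.28 SE, edgeR adjusted p = 7.18e-34). Nxph1 stood at 1139 CPM in injured members against 118 CPM in other injured nuclei, and at 554 CPM in naive members against 112 CPM in other naive nuclei (2.81 ± 0.11 SE, adjusted p = 3.11e-140). Both member levels lay above both other levels for each gene, which choosing the largest folds with 1 direction in both libraries makes likely. Pappa, a protease of insulin-like growth factor binding proteins, rose by a log2 fold change of 2.94 and Megf11, an adhesion protein with EGF repeats, by 2.75. Neither passed outside cluster 8, where the values were 0.20 and 0.50.

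Next in rank came Col14a1, a collagen (2.37), Fign, a microtubule-severing ATPase (2.35), Pdzrn3, a ubiquitin ligase (2.25), the transcription factor Hlf (2.23), Chst8, a sulfotransferase of glycoprotein hormones (2.14), and Fras1 of the extracellular matrix (2.12). Meis2 (2.0), the zinc finger gene Zfp804b (1.91), the cyclin Ccnd2 (1.88), Rnf207 (1.88) and the transcription factor Zfhx3 (1.75) completed the 15 highest. The Ccnd2 value rested on few UMIs, 16 in injured and 11 in naive members. It was 2.58 in the injured and 1.31 in the naive library, 1.09 outside cluster 8 (adjusted p = 0.720), and 0.30 in members without Pdyn, Tac1 or Adcyap1 UMIs. Of the 14 that could be tested outside cluster 8, 9 passed there too. Zfhx3 kept most of its difference outside the cluster (log2 fold change 1.65), while Nxph1 (1.23) and Meis2 (1.05) kept part of it. Outside cluster 8, members also lay in cluster 2, where Rnf207 led and Zfhx3 was among the 10 leading genes, and in cluster 12, led by Pde11a.

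**Figure D3:**
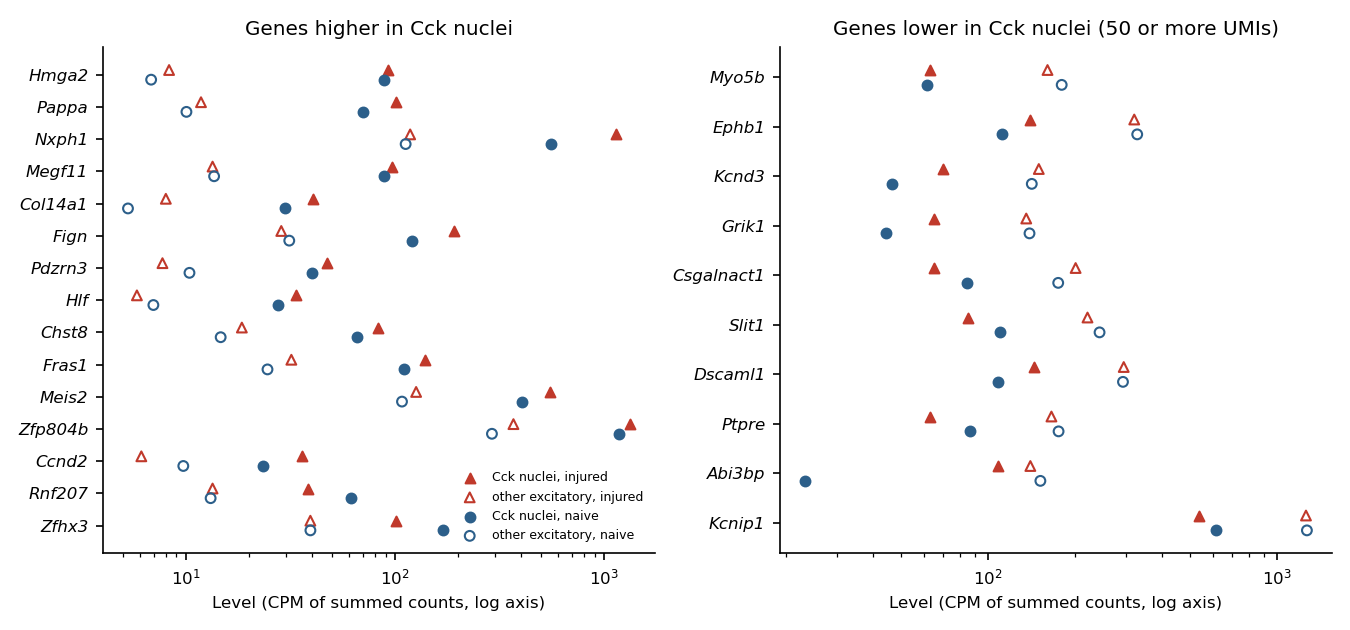
Levels (CPM of summed counts, log axis) of the 15 genes most raised in members (left) and of 10 lowered genes with at least 50 UMIs in members (right); filled symbols are Cck nuclei and open symbols other excitatory nuclei, injured as triangles and naive as circles. In each row both filled symbols lie on the same side of both open symbols.

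The 15 lowest genes by the same rule had almost no counts in members, so their fold changes are limited by depth. Myo1h, Qrfpr (the receptor of the peptide 26RFa), Aspa and Ptger3 (a prostaglandin E receptor) had no UMI in members, which made them at least 3.10-, 2.98-, 2.55- and 2.40-fold lower than in other excitatory nuclei, with 3 counts over both libraries as the limit. The other 11, Unc5cl, Doc2b, Htr5b, Ctcflos, Zfp9, Rreb1, Ropn1, Zfp790, Wdfy4, Asic4 and Neat1, had 1 or 2 UMIs. Unc5cl, with 1 UMI in members and 257 in other nuclei, had a ratio of 0.0540 (0.00136 to 0.304).

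A firmer view came from lowered genes with at least 50 UMIs in members, a choice made after the values were seen. Myo5b, an unconventional myosin, had 62.9 CPM in injured members against 161 CPM in other injured nuclei, and 61.3 CPM in naive members against 179.8 CPM in other naive nuclei (log2 fold change -1.48 ± 0.19 SE, edgeR adjusted p = 7.04e-13). The ephrin receptor gene Ephb1 (-1.39), the chondroitin sulfate enzyme gene Csgalnact1 (-1.34), the axon guidance ligand gene Slit1 (-1.27) and the adhesion gene Dscaml1 (-1.25) were among those that followed. Kcnip1, an auxiliary subunit of A-type potassium channels, was detected in 65.9% of injured and 69.4% of naive members, against 95.6% of other injured and 95.9% of other naive nuclei (-1.16, adjusted p = 1.07e-29). These 6 genes also passed the test outside cluster 8.

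Gene lists are described by their counts and medians, against 1.80% of all genes tested called higher, 2.22% called lower and a median of 0.00. The lists held 111 called genes in all. With each library split by sex-linked UMIs, 87 of the 100 with a value were called. DESeq2 called 53 of the 84 to which it gave an adjusted p, and 51 of 109 passed outside cluster 8. In the list of dorsal horn excitatory identity genes, 2 of the 10 tested were higher and 4 lower in members, with a median log2 fold change of -0.66. Lmx1b, which specifies these neurons, was still present in 22 of 41 injured and 20 of 49 naive members, at 92.1 CPM in injured members against 121 CPM in other injured nuclei and 61.3 CPM in naive members against 117 CPM in other naive nuclei (-0.66, adjusted p = 0.0132). The Lmx1b call was lost with each library split by sex-linked UMIs (adjusted p = 0.115) and outside cluster 8 (adjusted p = 0.306). Ebf3 (-0.67), Prrxl1 (-1.60) and Prdm8 (-1.85, from 5 UMIs) also fell, and Prdm8 was not called in the split libraries (adjusted p = 0.114). Slc17a8, a second vesicular glutamate transporter gene, rose: it had 15 UMIs in injured and 5 in naive members, against 3 and 2 UMIs in other injured and naive nuclei, with 35% of the members' UMIs in 1 nucleus. Nrn1 was the other gene that rose (0.60). The calls of Ebf3, Prrxl1, Prdm8 and Nrn1 were lost outside cluster 8, and DESeq2 did not call Lmx1b or Nrn1.

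Of 28 deep dorsal horn transcription factors tested, 10 were higher and 7 lower in members, with a median of 0.05. Beside Maf, Rora, Meis2 and Zfhx3, Tshz2 (log2 fold change 1.24), Zfhx4 (0.54), Meis1 (0.47) and Onecut2 (1.59) rose, and Bnc2 passed with all of its 15 UMIs in naive members. The 7 that fell were Nfia (-1.10), Nfib (-1.05), Nfix (-1.69), Satb1 (-0.72), Tcf4 (-1.13), Zeb2 (-0.83) and St18 (-1.76). Tcf4 stood at 548 CPM in injured members against 1350 CPM in other injured nuclei and at 675 CPM in naive members against 1291 CPM in other naive nuclei. The calls of Zfhx4, Meis1, Onecut2, Satb1, Zeb2 and St18 were lost outside cluster 8. Among genes with an adjusted p from DESeq2, Zfhx4, Meis1 and Satb1 were not called.

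Of 36 subtype markers, 6 were higher (Megf11, Calb2, Rxfp1, Cpne8, Maf and Pde11a) and 7 lower (Qrfpr, Rreb1, Reln, Tacr1, Baiap3, Necab2 and Sorcs3), with a median of 0.01. Reln, the secreted glycoprotein reelin, had 27.0 CPM in injured members against 144 CPM in other injured nuclei and 57.1 CPM in naive members against 119 CPM in other naive nuclei (log2 fold change -1.64). Tacr1, the substance P receptor, had 53.9 CPM in injured members against 118 CPM in other injured nuclei and 67.7 CPM in naive members against 119 CPM in other naive nuclei (-0.98). Of 24 peptide receptor genes 1 rose, Rxfp1 for relaxin (1.43), and 3 fell, Tacr1, Npy5r (-1.30) and Qrfpr. The calls of Megf11, Calb2, Rxfp1, Qrfpr, Tacr1, Necab2 and Npy5r were lost outside cluster 8. Among genes with an adjusted p from DESeq2, Pde11a, Tacr1 and Baiap3 were not called. Of 18 genes tested from the list of peptide precursors, Penk fell. Nxph1, the neurexophilin gene that the list also holds, rose.

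For the machinery of peptide making and release, 2 of 19 genes were higher and 2 lower, with a median of -0.04. Pcsk2, a prohormone convertase, stood at 395 CPM in injured members against 205 CPM in other injured nuclei and at 302 CPM in naive members against 179 CPM in other naive nuclei (log2 fold change 0.84 ± 0.12 SE, edgeR adjusted p = 7.63e-10), and it was as high outside cluster 8 (0.90). Cadps2, which primes dense-core vesicles, rose by 1.23, and outside cluster 8 it did not pass (0.76, adjusted p = 0.160). Pam, the amidating enzyme, fell by 0.47 and Ptprn2, a vesicle membrane protein, by 0.37 on the log2 scale, and neither passed outside cluster 8. Ptprn2 was also not called in the split libraries (adjusted p = 0.0678).

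Among 15 AMPA receptor genes, the auxiliary subunits Cnih3 (1.58) and Gsg1l (1.03) rose while Gria3 (-0.44) and Shisa6 (-0.51) fell. Among 5 NMDA receptor genes Grin2a rose, to 768 CPM in injured members against 446 CPM in other injured nuclei and to 611 CPM in naive members against 404 CPM in other naive nuclei (log2 fold change 0.67, adjusted p = 2.95e-09). Of 9 kainate and delta receptor genes 3 fell, Grik1 (-1.35), Grik4 (-0.81) and Grik2 (-0.38), and none passed in the other direction. Grm7 was the single one of 9 metabotropic genes to pass (0.44). Of 21 genes tested in the GABA-A and glycine receptor list, Glra1 (1.09) and Gabra5 (0.98) rose, and Glra2 (-1.01) and Gabrb1 (-0.34) fell. Kctd8, which that list also holds but which encodes an auxiliary subunit of GABA-B receptors, fell too (-0.59). Glra1 had 276 CPM in injured members against 121 CPM in other injured nuclei and 216 CPM in naive members against 107 CPM in other naive nuclei. Outside cluster 8 the calls of Cnih3, Gsg1l, Gria3, Grik2, Grik4, Grm7 and Gabrb1 were lost. Among genes with an adjusted p from DESeq2, Gria3, Shisa6, Grik2, Gabra5 and Gabrb1 were not called.

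Among 43 potassium and HCN channel genes, 3 rose and 4 fell. Kcnh8 (1.40), Kcnab1 (0.93) and Kcnn2, a small-conductance calcium-activated channel (0.72), were higher. Kcnd2 (-0.50) and Kcnd3 (-1.36), the pore subunits of A-type currents, fell together with their partner Kcnip1 and with Kcnq5 (-0.56). Of 27 calcium and sodium channel genes, Cacna1c rose (0.33) and Cacna1e fell (-0.77). Of 21 monoamine, acetylcholine and cannabinoid receptor genes, 5 rose, Htr2c (1.0), Htr7 (0.81), Adra1a (1.32), Chrm2 (0.63) and Drd3 (2.41, from 10 UMIs), and 2 fell, Htr2a (-2.58) and Drd2 (-1.49). Htr2c, a serotonin receptor, had 827 CPM in injured members against 403 CPM in other injured nuclei and 691 CPM in naive members against 344 CPM in other naive nuclei. Outside cluster 8 the calls of Kcnn2, Kcnd2, Kcnq5, Cacna1c, Htr7 and Htr2a were lost. Among genes with an adjusted p from DESeq2, Cacna1c, Htr7 and Adra1a were not called.

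The adhesion and guidance list had the most calls, 10 higher and 20 lower among 68 genes, with a median of -0.07. Nrp1, a semaphorin co-receptor, rose by a log2 fold change of 1.63, and the netrin receptor gene Unc5c by 0.99. Slit1, Cdh18 (-0.93), Pcdh15 (-0.91) and Cntnap5c (-0.91) were among those that fell. Outside cluster 8 the calls of Cdh6 and Cdh12, both higher, were lost. Among lowered genes, Cdh4, Cntn3, Cntn5, Cntnap4, Cntnap5c, Nlgn1, Lrrtm4, Robo2, Sema3a, Sema3d, Sema6a, Tenm1 and Negr1 lost their calls there. Of genes with an adjusted p from DESeq2, Cdh4, Cdh11, Cntn6, Cntnap4, Dcc, Lrrtm4, Negr1, Sema3d, Sema6a and Tenm1 were not called. Cdh6, Lrrtm4 and Sema6a were not called in the split libraries. By edgeR none of 12 immediate early, 12 heat shock and 75 ribosomal protein genes was called; 2 (Fos and Egr1), 0 and 0 of them had an unadjusted p under 0.05. DESeq2 gave an adjusted p to 0, 5 and 5 of them and called none of these 10. Among 83 oxidative phosphorylation genes, Cox5a was one of those called higher (log2 fold change 0.62, adjusted p = 0.0490 by edgeR's quasi-likelihood test), a call lost in the split libraries (adjusted p = 0.0666) and outside cluster 8 (adjusted p = 0.207). The immediate early median was 0.40, with Fos at 12 UMIs in members (1.71, adjusted p = 0.0805).

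**Figure D4:**
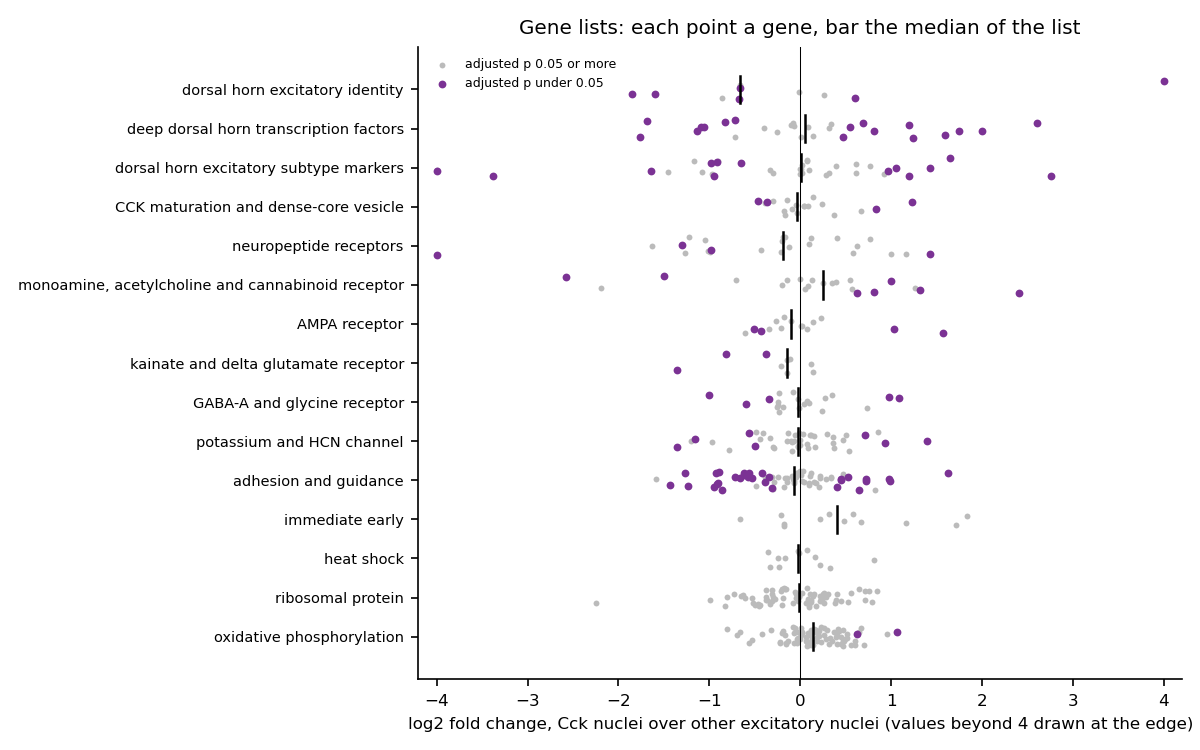
Log2 fold change of Cck nuclei over other excitatory nuclei for the tested genes of 15 lists; each point is a gene, purple where the adjusted p was under 0.05, and the bar is the list's median. Points lie on both sides of 0 in most lists; the identity list has its median at -0.66.

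Markers of other cells are given as summed lists. The summed oligodendrocyte list stood at 67.4 CPM in injured members (45.5 to 96.2) against 149 CPM in other injured nuclei, and at 71.9 CPM in naive members (49.8 to 100) against 129 CPM in other naive nuclei. Mog and Mag were at 0 in members of both libraries and were called lower; Vcan of the precursor list and Slc1a3 of the astrocyte list were also called lower. Their part in the other differences was not tested. The astrocyte list stood at 44.9 CPM in injured members against 45.0 CPM in other injured nuclei, and at 40.2 CPM in naive members against 43.1 CPM in other naive nuclei. The microglia list stood at 96.6 CPM in injured members against 97.0 CPM in other injured nuclei, and at 127 CPM in naive members against 110 CPM in other naive nuclei, with Csf1r, C1qa, C1qb, Ctss and Tmem119 at 0 in members of both libraries. The list of inhibitory markers outside the gate stood at 47.2 CPM in injured members against 49.4 CPM in other injured nuclei, and at 74.0 CPM in naive members against 73.6 CPM in other naive nuclei, with 0 of 3 tested genes called. By edgeR no gene was called, nor had an unadjusted p under 0.05, in that list or in the microglia (3 tested), endothelial and mural (3), ependymal (1) and CSF-contacting neuron (3) lists; DESeq2 gave an adjusted p to only 1 of these genes, of the microglia list, and did not call it. Motor and sensory ganglion markers were too sparse to test. The calls also held Xist (-0.30, adjusted p = 0.0452) and the Y-linked gene Kdm5d (-1.94, adjusted p = 0.0443), both lower in members. Neither was called with each library split by sex-linked UMIs (adjusted p = 0.198 and 0.257).

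The comparison of injured with naive members has no test. Over both libraries 1665 genes had at least 100 UMIs in members, and the ratio of injured over naive CPM was at least 1.5 for 48 of them (2.88%) and at most 1/1.5 for 45 (2.70%). The SD of the log2 ratios was 0.30, against 0.22 if counting alone set it, and the median was 0.03. In other excitatory nuclei, which hold many more UMIs, the SD for the same genes was 0.14. Members lay in cluster 8 more often in the injured than in the naive library (48.8% and 38.8%), so that a ratio over all members also carries that mix; its part was not tested.

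Plcxd3, a phospholipase C domain gene, had the highest ratio under the naming rule. It stood at 285 CPM in injured and 97.3 CPM in naive members, a ratio of 2.93 (2.08 to 4.2), while in other excitatory nuclei the ratio was 0.908 (0.858 to 0.961). Its median was 2 UMIs per injured and 0 per naive member. In members outside cluster 8 the ratio was 4.76 (2.89 to 8.20), and in those inside it 1.55 (0.943 to 2.62). In members with Xist UMIs only it was 2.06 (1.36 to 3.16). With Y-linked UMIs only, 10 nuclei in each library, it was 8.18 (3.28 to 26.3), from 49 injured and 5 naive UMIs. That both groups had 1 direction was a condition of the naming rule.

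Nxph1, the gene that also set the members apart, stood at 1139 CPM in injured and 554 CPM in naive members, a ratio of 2.06 (1.77 to 2.40), against 1.05 in other excitatory nuclei. Among members of cluster 8 it was 2653 CPM in 20 injured and 1421 CPM in 19 naive nuclei, a ratio of 1.87 (1.58 to 2.21). Among Cck-negative nuclei of the same cluster the ratio was 0.910 (0.767 to 1.08), with 1747 CPM in 17 injured and 1920 CPM in 19 naive nuclei. The interval of the Cck-negative nuclei includes 1. With 17 to 20 nuclei a group, the difference between both ratios was not tested. The ratio of Nxph1 was 1.54 (1.29 to 1.83) in members with Xist UMIs only. In those with Y-linked UMIs only it was 7.29 (4.26 to 13.4), from 131 injured and 15 naive UMIs. The naming rule asked for 1 direction in both groups here too.

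The other genes with the highest ratios were Epha3, an ephrin receptor gene (1.98), Rcan2, a calcineurin regulator (1.96), Dopey1 (1.92), Tmem181a (1.84), Ndst3, a heparan sulfate enzyme (1.83), Synpr, a synaptic vesicle protein (1.83), Cntnap4 of the neurexin family (1.83) and Ptpn12, a tyrosine phosphatase (1.79). Epha3 had a ratio of 2.39 (1.52 to 3.86) in members of cluster 8, 1.05 (0.562 to 1.93) in members outside it and 1.2 (0.810 to 1.79) in Cck-negative nuclei of the cluster. Synpr had no UMI in members of cluster 8, so its counts came from the others. Tmem181a was the one of the 10 whose ratio in other excitatory nuclei (1.51) was also past 1.5.

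Hsp90ab1, a heat shock chaperone, had the lowest ratio. It stood at 60.6 CPM in injured and 173 CPM in naive members, a ratio of 0.35 (0.218 to 0.546), and was detected in 46.3% of injured and 77.6% of naive members. The ratio was 0.344 inside and 0.355 outside cluster 8, and 0.675 in other excitatory nuclei. Fth1, the ferritin heavy chain (0.431 in members, 0.656 in other excitatory nuclei), and the ubiquitin gene Ubb (0.543 and 0.549) were also lower in other injured excitatory nuclei. Slc25a3, the mitochondrial phosphate carrier (0.408), Ncapd3 of condensin (0.438), Stmn3, a microtubule regulator (0.485), Trim35 (0.525), Ttc8 of the BBSome (0.544), Asph (0.547) and the RNA-binding gene Igf2bp3 (0.554) made up the rest, with ratios of 0.833 to 1.08 in other excitatory nuclei. For Ncapd3, 27.0% of all members' UMIs came from 1 naive nucleus, and for Stmn3 16.6% came from 1 nucleus. Ncapd3 was detected in 63.4% of injured and 49.0% of naive members, and its ratio was 2.24 (0.748 to 8.01) inside and 0.349 (0.218 to 0.541) outside cluster 8.

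**Figure D5:**
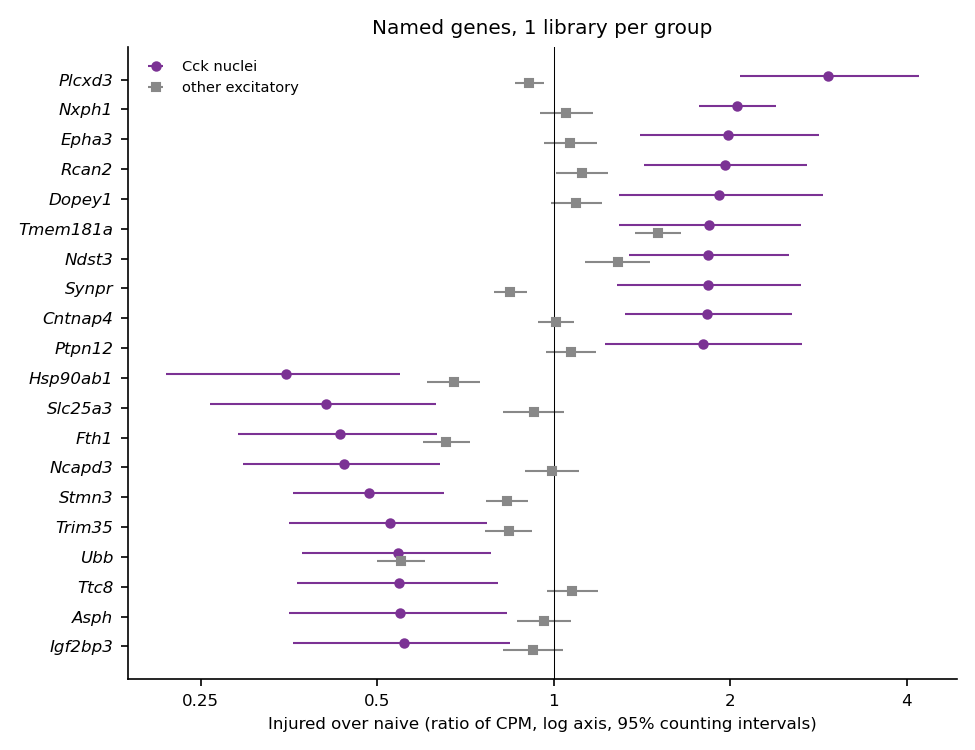
Ratio of injured over naive CPM (log axis, 95% counting intervals) for the 10 highest and 10 lowest genes by the naming rule, in Cck nuclei (purple circles) and other excitatory nuclei (grey squares). Plcxd3 stands at 2.93 in Cck nuclei and 0.908 in other excitatory nuclei, while Ubb is at 0.543 and 0.549.

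Gene lists are set against the 2.88% of all 1665 genes with a ratio of at least 1.5 and the 2.70% at or under 1/1.5. In the adhesion list 4 of 53 genes with enough UMIs had a ratio of at least 1.5, Epha3, Cntnap4, Tenm3 (1.67) and Epha6 (1.5), and none was at or under 1/1.5. Among 10 genes of peptide making and release, Scg2, a granin, was at 0.620 (0.447 to 0.853), against 0.721 in other excitatory nuclei. Of 4 oxidative phosphorylation genes, Atp5a1 (0.566) and Cox7c (0.618) were past the fold, and all 4 ratios were under 1. Kctd8 (1.63), Cacna2d3 (1.58), Dpp10 (1.55) and Nfib (1.54) were also past the fold upward, and Zfhx3 (0.597) and Grik4 (0.595) downward. Cpne4 stood at 0.404 (0.266 to 0.602), against 1.30 in other excitatory nuclei. It had 127 UMIs in members and was detected in 39.0% of injured and 38.8% of naive members. These values meet the naming rule's limits on UMIs and detection. Cpne4 was not named because it lacked 1 direction in nuclei with Xist and in nuclei with Y-linked UMIs. Of its UMIs in members, 14.96% came from 1 nucleus.

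Cck itself was lower over all excitatory nuclei of the injured library, at a ratio of 0.680 (0.474 to 0.972) to the naive level. The ratio was 0.862 (0.510 to 1.45) inside cluster 8 and 0.570 (0.337 to 0.949) outside it, and it was 1.11 (0.655 to 1.89) in inhibitory nuclei. Both sex-linked groups gave intervals that include 1, 0.730 (0.476 to 1.11) in nuclei with Xist UMIs only and 0.607 (0.256 to 1.41) in those with Y-linked UMIs only. A summed level does not tell fewer nuclei with Cck from less Cck in each. Tac1 had a ratio of 1.05 (0.731 to 1.5) in members, at 146 CPM in the injured and 140 CPM in the naive library. In other excitatory nuclei its ratio was 0.514 (0.443 to 0.595). Inside cluster 8 the Tac1 ratio was 1.01 in members and 0.852 in Cck-negative nuclei. In members outside the cluster it was 0.446, from 6 injured and 16 naive UMIs. The intervals of these splits by cluster all include 1. The part of cluster 8 in the Tac1 ratio of members was not tested.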

How the data were processed

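The deposited raw matrix held UMI counts for 19575 genes in 7610 nuclei; per the submitters' processing notes, Cell Ranger 3.0.2, Seurat (version not stated) and build mm10 were used. Nuclei were assigned to the libraries through the barcodes of the normalized tables that the authors deposited for each sample, whose values are the natural log of 1 plus the count scaled to 10000 per nucleus, as a check on 2000 genes showed. All deposited nuclei were used, without removing doublets. How nuclei were filtered and whether intronic reads were counted is not given in the sources used here.

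Raw counts were summed over nuclei per library and class. Members and other excitatory nuclei were compared with edgeR 4.0.16 (quasi-likelihood test, TMM factors, filterByExpr, library as a block, Benjamini-Hochberg adjusted p, 4 sums); the 9 genes of the gate were described, not tested. With the library as a block, the p-values rest on how the difference between classes varied across the 2 pooled libraries. That spread was estimated once for all genes, and spread between mice is not measured. Fold changes within a library and ratios of injured over naive CPM used no test; ratios have exact conditional binomial, levels exact Poisson and shares Clopper-Pearson intervals. Clustering used scanpy 1.11.5 and leidenalg 0.10.2 (2000 variable genes, 20 components, 15 neighbours, resolution 0.8). Named genes were the 15 highest and 15 lowest calls with at least 100 UMIs and 1 direction in both libraries. Between libraries they were the 10 highest and 10 lowest ratios with at least 100 UMIs, a UMI in at least 10% of members of 1 library, and 1 direction in nuclei with Xist and in nuclei with Y-linked UMIs. Predicted, mitochondrial, ribosomal and sex-linked genes were left out, and up to 4 genes a list and a set of fixed genes were added; other list members that passed are named with their values, a choice made after these were seen. Alternatives included DESeq2 1.42.0, other size factors, filters, depths and members. The edgeR step was tested on simulated data. Members, gene lists and markers were chosen with earlier results of these data known. Some genes that the naming rule or the lists hold are not reported here.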

Additional observations from a re-analysis of the deposited data

How the results depend on the processing

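Counts of genes past the threshold moved by more than 1.5 times in several settings. In place of 231 higher and 285 lower genes, DESeq2 gave 70 and 74, nuclei thinned to 3000 UMIs 95 and 126, removal of the 10% deepest nuclei 126 and 131, and removal of Pdyn, Tac1 and Adcyap1 nuclei from both classes 89 and 68. Members with at least 2 Cck UMIs gave 126 higher, members without those 3 peptides 180 lower, and a fit without the library block 146 lower. Without cluster 8 they were 105 and 96. DESeq2 gave an adjusted p to 361 of the 516 calls, all in the same direction. The share of higher genes among calls was 44.8%, 47.0% with RLE size factors, 36.7% without a filter on low counts and 33.4% with at least 2 Cck UMIs. For the 30 named genes, 236 values in these settings or in a single library were the same. Another 103 missed the threshold and 31 moved by over 1 standard error, none with a change of sign. In a single library the naming rule, which asks for 1 direction in both, fixed the sign.

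The share of members was 1.63% injured and 1.97% naive with at least 2 Cck UMIs, 2.08% and 2.82% without the 3 peptides, and 0.709% and 2.31% when nuclei were thinned before the gate. Genes with an injured over naive ratio of at least 1.5 numbered 28 with at least 2 Cck UMIs, 22 thinned, 84 with a TMM factor and 158 with a minimum of 50 UMIs, in place of 48. Those at most 1/1.5 numbered 3 with at least 2 Cck UMIs, 19 without the 3 peptides, 8 in nuclei with Y-linked UMIs only, 17 without the deepest nuclei, 3 thinned, 20 without cluster 8, 29 with a TMM factor and 249 with a minimum of 50 UMIs, in place of 45. Fewer UMIs leave fewer genes over the minimum; the TMM factor moved the median log2 ratio to 0.13. With at least 2 Cck UMIs the log2 ratio turned round for Synpr (-0.21), Cntnap4 (-0.061) and Stmn3 (0.33); the cause was not tested.

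The gate that allows Pdyn, Tac1 and Adcyap1 is the one reported; the narrower gate, the thinned injured over naive ratio and the setting without cluster 8 were added after seeing the data. Injured and naive mice could not be paired because each group is 1 library and its number follows accession order. Members and other excitatory nuclei were paired by library through the block. At this depth most of the 90 members had 1 Cck UMI, so nuclei that express Cck can be missed.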
